A study of Bos taurus with 40 samples.

Results

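The immediate early and stress response genes are transcripts that cells switch on within minutes to hours of a stimulus. They were taken by name, as 36 of the 32671 genes counted in bovine endometrium, and all 36 had enough reads to be tested in both uterine horns. They comprise the AP-1 genes FOS, FOSB, FOSL1, FOSL2, JUN, JUNB, JUND and ATF3, the zinc-finger factors EGR1, EGR2, EGR3, KLF2, KLF4, KLF6 and KLF10, the orphan receptors NR4A1, NR4A2 and NR4A3, and MYC. The others are IER2, IER3 and IER5, the inhibitors DUSP1, DUSP2, DUSP5, ZFP36, SOCS3 and TRIB1, the growth-arrest and stress genes BTG2, PPP1R15A, GADD45A, GADD45B, GADD45G and MCL1, and the secreted matrix-associated proteins CTGF and CYR61. RefSeq now lists CTGF as CCN2 and CYR61 as CCN1.

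Endometrium, the inner lining of the uterus, was taken at slaughter from heifers with synchronized cycles, on days 5, 7, 13 and 16 after estrus. Under each heifer tag of the labels there is a library of the horn on the side of the ovary with the corpus luteum (ipsilateral) and 1 of the other horn (contralateral), which gives 8 groups of 5 libraries and 40 libraries in all. The labels call the time a day of pregnancy, and the sources used here do not say whether a conceptus was there. Each library came from a piece of whole endometrium, so a change in a transcript cannot be told apart from a change in the share of the cells that hold it. No animal was treated to induce these genes, and the sources used here do not give the time from slaughter to freezing.

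In resting cells the mRNAs of this group are held low by weak transcription and rapid decay. Growth factors, hormones, cytokines, stretch or injury activate kinase cascades that modify factors already bound at the promoters (SRF with its ELK partners, and CREB). Some of these stimuli also let the YAP and TAZ coactivators enter the nucleus and join TEAD. Transcription then starts without new protein synthesis. The first products are mostly transcription factors, followed by inhibitors that end the response: phosphatases that switch off the MAP kinases, proteins that destroy unstable mRNAs, and blockers of cytokine receptors. Handling and delay before freezing of a tissue are also known to induce many of these genes. In the uterus several of them respond to estrogen and progesterone.

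Libraries held 27.03 to 41.31 M reads in genes (1 M is 1000000), except for 1 of 64.37 M (ipsilateral day 5, heifer tag 3-175). Markers of epithelium, stromal fibroblasts, smooth muscle, endothelium and leukocytes were detected in all 40 libraries, so the samples were mixed tissue as labelled. Neutrophil and blood markers were near the floor: their summed level was 0.842 to 12.4 CPM (reads of a gene per 1000000 reads of the library), and the hemoglobin gene HBA was at 0 in 39 libraries. All CPM values below use library sizes scaled by TMM, a method that corrects for differences in RNA composition. They are not divided by gene length, so levels are compared between libraries and not between genes.

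Both horns held a day 5 library that stood apart for this group of genes. In ipsilateral library 3-175, which was also the deepest, 33 of the 36 genes were above the mean of their group. FOS measured 89.9 CPM there, against 15.9, 18.3, 21.3 and 25.4 CPM in the other ipsilateral libraries of day 5. In contralateral library 1-315, 32 of the 36 genes were above the group mean, and FOS measured 70.3 CPM against 15.2, 18.8, 24.6 and 28.5 CPM in the others. The 2 libraries carry different heifer tags, and the opposite horns of the same tags were not high, with 10 genes (3-175) and 7 genes (1-315) above their group means. Over the genes outside this group, each of the 2 was nevertheless the other's closest match between the horns on day 5 (r = 0.677). The opposite horns of these tags matched too, ipsilateral 1-315 being closest to contralateral 3-175 (r = 0.428). Ipsilateral 4-184 was closest to contralateral 7-300 (r = 0.305) and ipsilateral 7-300 to contralateral 4-184 (r = 0.472). Ipsilateral 8-1350 was closest to its own tag (r = 0.314). Whether these matches come from wrong tags or from states that the libraries share was not tested. The summed leukocyte markers of library 3-175 were 402.2 CPM against 121.5 to 238.3 CPM in the other 4, and its summed neutrophil and blood markers were 12.35 CPM against 1.889 to 2.562 CPM. In library 1-315 these sums were 357.8 CPM against 193.3 to 315.7 CPM (leukocytes) and 8.196 CPM against 2.571 to 3.769 CPM (neutrophils and blood). The part of leukocytes or of depth in the values of these libraries was not tested. Another ipsilateral library of day 5, 8-1350, had a smooth muscle marker sum of 6615 CPM, against 916 to 1124 CPM in the others. Values without these libraries are given beside the results that they changed most.

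**Figure D1:**
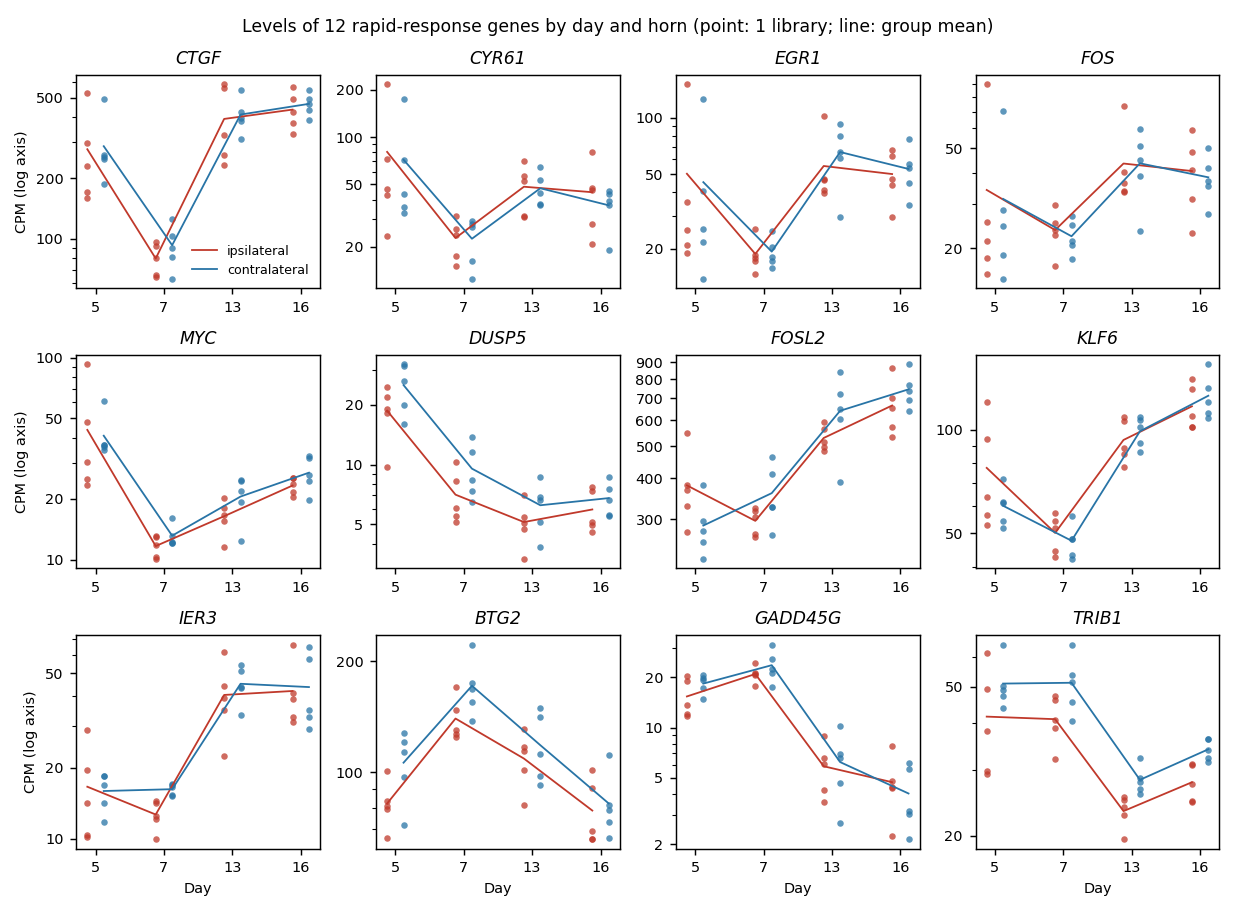
Level of selected genes in CPM (log axis) by day after estrus, with 1 point per library and 5 libraries per group, in the ipsilateral and the contralateral horn; lines join the group means. CTGF and EGR1 are lowest on day 7 and higher on days 13 and 16, while the single high points of FOS and EGR1 on day 5 are libraries 3-175 (ipsilateral) and 1-315 (contralateral).

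The first question was whether the levels of these genes changed over the 4 days. With edgeR's quasi-likelihood test within each horn, at a Benjamini-Hochberg adjusted p below 0.05 over all genes, 25 of 36 (69.4%) changed with day in the ipsilateral horn, where 54.9% of all tested genes did. On the contralateral side 24 of 36 (66.7%) did, beside 55.3% of all genes. In all, 22 genes passed in both horns and 27 in at least 1. The horns carry the same heifer tags, so the second is not counted as an independent repeat of the first. The 9 genes that passed in neither horn were FOS, FOSB, JUNB, EGR3, IER2, KLF2, KLF4, DUSP2 and MCL1. For FOS this rested on the high library of each horn: it passed in the ipsilateral horn without 3-175 (adjusted p = 0.00413) and in the contralateral horn without 1-315. JUNB and IER2 also passed without 3-175, and EGR3 without 1-315. By contrast FOSL1, FOSL2, JUN, KLF6, KLF10, MYC, IER3, IER5, DUSP1, DUSP5, CTGF, CYR61 and the GADD45 genes had a day effect in each horn with all libraries in. Of the 25 ipsilateral day effects 18 held whichever single library was left out, and those of EGR1, EGR2, ATF3, NR4A2, ZFP36, SOCS3 and CYR61 did not. Of the 24 contralateral ones 20 held, and those of JUND and the 3 NR4A genes did not. The mean was lowest on day 7 for 20 of the 36 genes in the ipsilateral horn and for 22 in the contralateral horn. The lowest day was not counted over all genes, so these counts are not shown to be particular to the group.

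Between day 5 and day 7 more of the group fell than rose. In the ipsilateral horn 13 of 36 genes (36.1%) fell, beside 13.7% of all genes, and 2 (5.56%) rose, beside 15%. Contralaterally 8 (22.2%) fell, beside 9.58% of all genes, and 2 rose, beside 10.8%. The 8 that fell in both horns were JUN, EGR2, KLF6, MYC, DUSP5, GADD45A, CTGF and CYR61, and the 2 that rose in both were BTG2 and GADD45B. FOSL1, JUND, EGR1, EGR3 and IER5 passed in the ipsilateral horn alone, which is not shown to be a difference between the horns. The median log2 change over the 36 genes was -0.37 (ipsilateral) and -0.30 (contralateral), against -0.02 and 0.00 over all genes tested. IER5, MYC, DUSP5, BTG2, GADD45A, GADD45B and CTGF kept their ipsilateral call whichever single library was left out, and 8 genes did not. FOSL1 was among these 8, with -1.08 in all libraries and -0.56 (adjusted p = 0.26) without 3-175, and its call was lost without any of 14 of the 20 libraries. Contralaterally 8 of the 10 calls held, and those of EGR2 and KLF6 did not. Without library 3-175 the ipsilateral counts became 5 lower and 5 higher, and without day 7 library 5-117 or 6-338 the lower count was 8. Without contralateral library 1-315, 6 genes were lower and 3 higher. The count over all genes, both directions together, moved as well. In the ipsilateral horn it was 5675 with all libraries in and 4352 (without 6-338) to 5732 with 1 left out. In the contralateral horn it was 3987, and 2853 without 1-315.

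From day 7 to day 13 more rose than fell. In the ipsilateral horn 12 genes (33.3%) rose, beside 14.6% of all genes, and 3 (8.33%) fell, beside 14.0%. Contralaterally 18 (50%) rose, beside 16.0% of all genes, and 4 (11.1%) fell, beside 17.5%. FOSL1, FOSL2, EGR1, IER3, IER5, KLF6, KLF10, NR4A2, DUSP1, PPP1R15A, GADD45A and CTGF rose in both horns, and GADD45B, GADD45G and TRIB1 fell in both. In the contralateral horn FOS, ATF3, MYC, NR4A1, NR4A3 and CYR61 also rose and BTG2 also fell. The median log2 change over the 36 genes was 0.53 (ipsilateral) and 0.67 (contralateral), against 0.03 and 0.01 over all genes. Whichever single library was left out, 11 of the 15 ipsilateral calls held (not EGR1, NR4A2, GADD45A and GADD45B) and 17 of the 22 contralateral calls (not FOS, ATF3, NR4A3, BTG2 and CYR61). This step and the one before it share the day 7 libraries, so the fall and the rise of a gene are not independent of each other. Without library 3-175, which does not enter this contrast but enters the estimate of the spread, 18 genes rose and 5 fell in the ipsilateral horn. The ipsilateral count over all genes, both directions together, was 5641 with all libraries in and 4866 to 6015 with 1 left out. Endothelial markers rose in this step for 3 of 10 in each horn, with a summed level of 353.5 to 674.1 CPM on day 7 and 574.4 to 890.6 CPM on day 13 in the ipsilateral horn. Smooth muscle markers rose for 0 and 1 of 10. Of the neutrophil markers, S100A12 rose in the contralateral horn by 3.11 ± 0.62 (adjusted p = 0.000632), and in the ipsilateral horn 0 of 4 tested markers passed. The part of any cell type in the rises was not tested.

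Little was called between day 13 and day 16. In the ipsilateral horn 0 of 36 genes rose, beside 0.193% of all genes, and 0 fell, beside 0.253%. DESeq2, an alternative count test, called KLF10 higher there. In the contralateral horn 1 gene rose, GADD45A, beside 0.608% of all genes, and 0 fell, beside 1.07%. The counts of this step were small for all genes as well, and the call of GADD45A was lost without each of 7 of the 20 libraries and when all 40 libraries were fitted together.

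**Figure D2:**
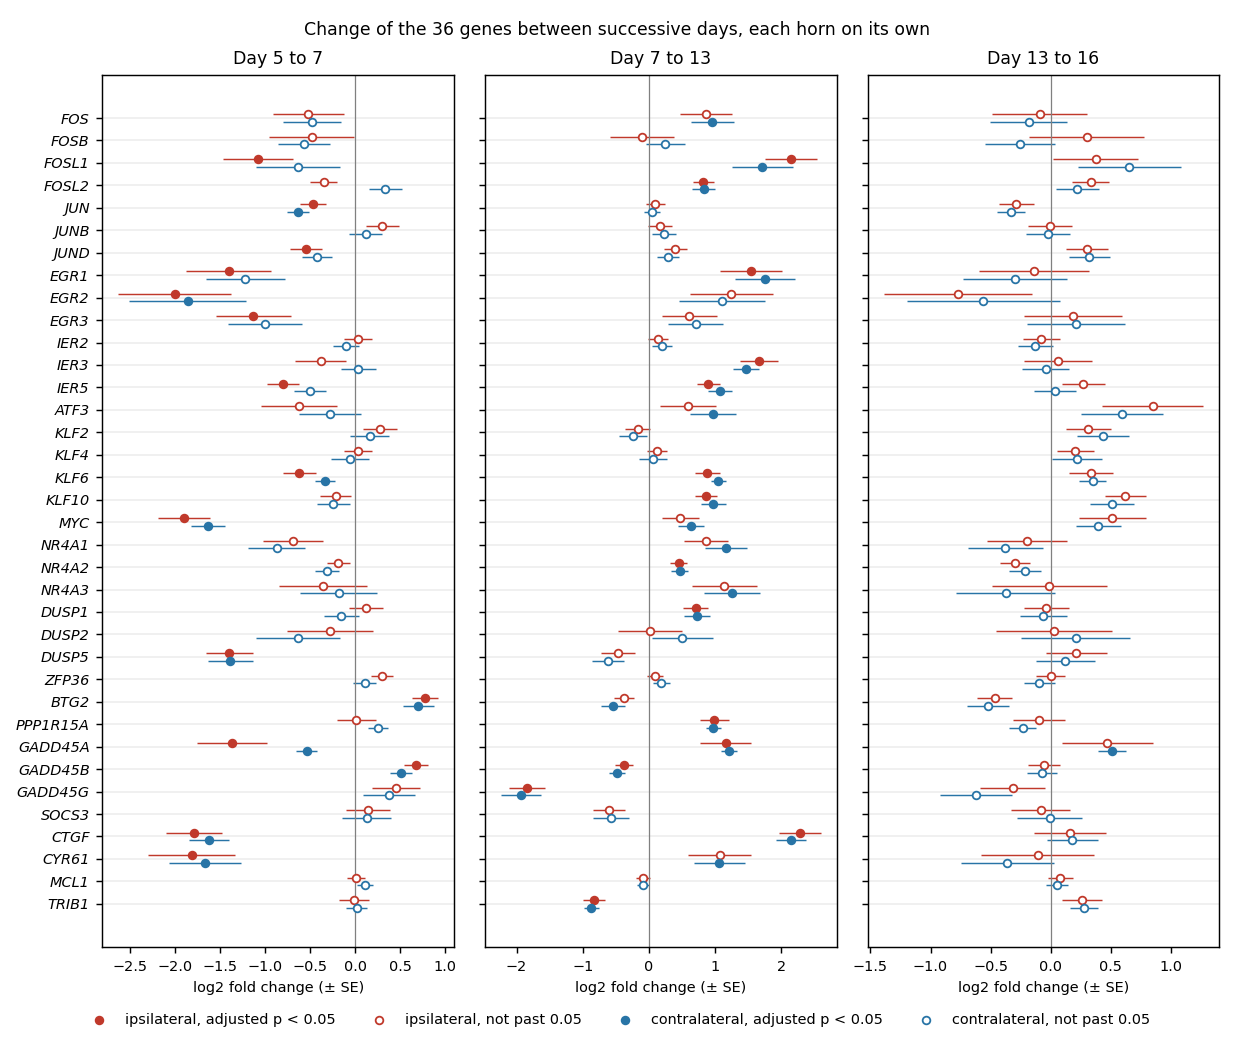
Log2 fold change of each of the 36 genes (rows) from day 5 to 7, 7 to 13 and 13 to 16 (panels), with bars of 1 standard error, in the ipsilateral and the contralateral horn; filled points passed an adjusted p of 0.05. Most filled points lie to the left of 0 in the first panel (13 and 8 lower) and to the right in the second (12 and 18 higher), and the last panel holds 1.

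CTGF and CYR61, secreted proteins that bind the matrix and integrins and are textbook targets of YAP and TAZ, were low on day 7 in both horns. Ipsilateral CTGF measured 159.4, 170.0, 229.5, 299.7 and 530.1 CPM on day 5 and 64.3, 66.3, 79.9, 92.3 and 96.2 CPM on day 7. It measured 232.5, 260.1, 327.8, 559.3 and 583.2 CPM on day 13 and 331.8 to 564.1 CPM on day 16. All 5 libraries of day 7 lay below every library of the other days. The contralateral horn showed the same order, with 187.5 to 491.0 CPM on day 5, 63.5 to 125.9 CPM on day 7, 312.6 to 545.1 CPM on day 13 and 388.4 to 547.7 CPM on day 16. From day 5 to 7 CTGF fell by 1.79 ± 0.31 (SE, adjusted p = 0.000431) on the log2 scale in the ipsilateral horn and by 1.62 ± 0.22 (adjusted p = 8.18e-05) in the contralateral horn. From day 7 to 13 it rose by 2.28 ± 0.31 (adjusted p = 3.05e-05) and 2.14 ± 0.22 (adjusted p = 6.43e-07), which is 4.85-fold and 4.41-fold. Each of these 4 calls held without any 1 library.

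CYR61 was less even. Ipsilateral CYR61 measured 23.4, 42.7, 46.7, 72.3 and 217.6 CPM on day 5, where 217.6 is library 3-175, and 15.2, 17.5, 23.6, 25.99 and 31.4 CPM on day 7. Contralateral values were 32.6, 35.6, 43.3, 71.2 and 176.4 CPM on day 5 and 12.5, 16.2, 26.5, 27.9 and 29.3 CPM on day 7. The ranges of the 2 days overlapped in the ipsilateral horn and did not in the contralateral horn. The log2 change was -1.81 ± 0.48 (adjusted p = 0.00943) in the ipsilateral and -1.67 ± 0.40 (adjusted p = 0.00577) in the contralateral horn. Without library 3-175 the ipsilateral change was -1.01 (adjusted p = 0.0562). CYR61 rose from day 7 to 13 by 1.06 ± 0.39 (adjusted p = 0.0422) in the contralateral horn, and the ipsilateral value was 1.07 ± 0.48 (adjusted p = 0.101). The contralateral call was lost without any of 9 of the 20 libraries, with no filter on low counts (adjusted p = 0.0522) and with all 40 libraries in 1 fit (adjusted p = 0.0703).

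The genes of the upstream machinery gave a value beside these: of 26 kinases, SRF, ELK, CREB, YAP and TEAD genes, 5 fell and 4 rose from day 5 to 7 in the ipsilateral horn. WWTR1, which encodes TAZ, had a log2 change of -0.93 ± 0.14 (adjusted p = 0.000147), and TEAD1, its DNA-binding partner, one of -0.90 ± 0.15 (adjusted p = 0.000288). In the contralateral horn 2 of the 26 fell and 3 rose. ELK3 was 1 of the 2 that fell (-0.56 ± 0.17, adjusted p = 0.022), so WWTR1 and TEAD1 were not both called there. This is not shown to be a difference between the horns. The part of WWTR1 and TEAD1 in the levels of CTGF and CYR61 was not tested. Smooth muscle markers moved in the same step: 8 of 10 fell in the ipsilateral horn (median log2 change -1.76) and 4 of 10 in the contralateral horn (median -0.82). The summed smooth muscle level was 916 to 6615 CPM on day 5 and 354.9 to 745.7 CPM on day 7 in the ipsilateral horn, and 828.3 to 1639 against 451.6 to 885 CPM in the contralateral horn, and no marker of the list was at 0 in any library. Stromal fibroblast markers fell too, 8 of 10 and 3 of 10. Epithelial markers went mostly the other way, with 7 of 14 higher and 2 lower in the ipsilateral horn (median 0.45) and 3 higher and 2 lower in the contralateral horn (median 0.23). Of 5 neutrophil and blood markers tested in the contralateral horn, S100A12 (-1.93 ± 0.61, adjusted p = 0.0291) and CXCR2 (-1.40 ± 0.45, adjusted p = 0.032) fell, and in the ipsilateral horn 0 of 4 passed. Their summed level had its lowest median on day 7, at 1.77 CPM (ipsilateral) and 1.73 CPM (contralateral). The part of these cells in the fall of CTGF, CYR61 and the others was not tested.

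Among the AP-1 genes, whose FOS-family and JUN-family products pair to bind DNA, the members differed. With all libraries in, the test of any day effect gave FOS an adjusted p of 0.237 (ipsilateral) and 0.0765 (contralateral). Ipsilateral FOS measured 17.01, 22.7, 23.7, 25.2 and 29.8 CPM on day 7 and 33.5, 33.8, 36.4, 40.2 and 73.7 CPM on day 13. Contralateral FOS measured 18.1, 20.6, 21.4, 24.9 and 26.9 CPM on day 7 and 23.4, 38.9, 44.9, 51.1 and 59.6 CPM on day 13. The ipsilateral ranges of these 2 days did not overlap, the contralateral ones did, and it was the contralateral step that passed (log2 change 0.95 ± 0.32, adjusted p = 0.0283, against 0.86 ± 0.40, adjusted p = 0.113). Without library 3-175 the ipsilateral step passed as well (0.84, adjusted p = 0.0177), and the FOS change from day 5 to 7, which did not pass either way, went from -0.52 to 0.24.

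FOSL1 and FOSL2, FOS relatives that last longer after a stimulus, rose from day 7 to 13 in both horns. FOSL1 was scarce, at 0.166, 0.175, 0.218, 0.242 and 0.291 CPM on ipsilateral day 7 and 0.719, 0.843, 0.910, 1.05 and 1.39 CPM on day 13. Its log2 change was 2.14 ± 0.39 (adjusted p = 0.00044) in the ipsilateral and 1.71 ± 0.46 (adjusted p = 0.00711) in the contralateral horn, where day 7 reached 0.630 CPM and day 13 started at 0.794 CPM. The ranges of the 2 days did not overlap in either horn. FOSL2 rose by 0.82 ± 0.15 (ipsilateral, adjusted p = 0.000544) and 0.82 ± 0.18 (contralateral, adjusted p = 0.00152), from 265.5 to 324.2 CPM on day 7 to 482.4 to 591.1 CPM on day 13 in the ipsilateral horn.

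JUN, the main FOS partner, had its highest group mean on day 5 in both horns. Contralateral JUN measured 210.1, 215.6, 218.7, 231.7 and 248.5 CPM on day 5 and 134.1, 136.4, 137.4, 140.6 and 173.1 CPM on day 7, with no overlap. The log2 change was -0.63 ± 0.12 (adjusted p = 0.00117) in the contralateral horn and -0.46 ± 0.15 (adjusted p = 0.0227) in the ipsilateral horn. The ipsilateral call was lost without library 3-175 (-0.38, adjusted p = 0.0659). JUND fell by 0.55 ± 0.18 (log2) in the ipsilateral horn (adjusted p = 0.0271), a call lost without 3-175 and without any of 4 others, and had a contralateral change of -0.42 ± 0.17 (adjusted p = 0.085). For JUNB, ipsilateral day 5 held 14.6, 15.4, 16.7, 17.2 and 32.4 CPM, where the highest is library 3-175, and day 7 held 20.2 to 25.2 CPM. Its step did not pass (0.30 ± 0.18, adjusted p = 0.226), and without library 3-175 it did, as a rise of 0.58 (adjusted p = 0.00532). ATF3, a bZIP factor induced by many stresses, rose from day 7 to 13 in the contralateral horn by 0.97 ± 0.34 (adjusted p = 0.0365), with an ipsilateral value of 0.59 ± 0.42 (adjusted p = 0.316).

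EGR1, a zinc-finger factor induced through SRF and ELK, stayed at or below 25.5 CPM in all 10 libraries of day 7. Ipsilateral EGR1 measured 14.7 to 18.6 CPM in 4 libraries and 25.5 CPM in the fifth on day 7 and 39.7, 41.1, 46.7, 47.0 and 101.8 CPM on day 13. Contralateral EGR1 measured 15.8, 17.3, 18.1, 20.5 and 25.1 CPM on day 7 and 29.4, 60.7, 65.2, 80.0 and 92.7 CPM on day 13. The days did not overlap, and EGR1 rose by 1.54 ± 0.47 (ipsilateral, adjusted p = 0.0186) and 1.75 ± 0.45 (contralateral, adjusted p = 0.00504). The ipsilateral rise was 1.17 (adjusted p = 0.0763) without day 13 library 8-275, the highest of its group. Day 5 was spread most widely, from 19.03 to 150.5 CPM (ipsilateral) and 13.9 to 124.9 CPM (contralateral). The preceding fall was -1.41 ± 0.47 (ipsilateral, adjusted p = 0.0311) and -1.22 ± 0.44 (contralateral, adjusted p = 0.0579). It was -0.40 (adjusted p = 0.326) without 3-175 and -0.39 without 1-315, and the ipsilateral call was also lost without any of 4 libraries of day 7.

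EGR2 and EGR3, relatives of EGR1 that bind the same sites, behaved in the same way on day 5. Ipsilateral EGR2 was at 0.279, 0.483, 0.498, 0.699 and 4.01 CPM on day 5 and contralateral EGR2 at 0.239, 0.424, 0.545, 0.830 and 3.98 CPM, with the same 2 libraries highest. The fall of EGR2 to day 7 passed in both horns (-2.003 ± 0.63, adjusted p = 0.0226, and -1.86 ± 0.65, adjusted p = 0.0491). Without the high library it was -0.69 (adjusted p = 0.274) and -0.62 (adjusted p = 0.448). The ipsilateral call was also lost without day 7 library 5-117 and with limma-voom (adjusted p = 0.0879). The contralateral call was lost without any of 16 of the 20 libraries and with limma-voom (adjusted p = 0.204). EGR3 fell in the ipsilateral horn (-1.13 ± 0.41, adjusted p = 0.0475), a call lost without any of 15 of the 20 libraries, 3-175 among them. Its contralateral change was -1.003 ± 0.41 (adjusted p = 0.095).

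Of the Krüppel-like factors, KLF6 and KLF10 changed and KLF2 and KLF4 were not called in any step. KLF10, induced early by TGF-beta, had group means of 45.7 ± 15.5, 39.1 ± 5.5, 71.7 ± 12.4 and 109.8 ± 11.8 CPM (SD, n = 5) on days 5, 7, 13 and 16 in the ipsilateral horn. Contralateral means were 52.2 ± 14.7, 43.8 ± 8.4, 86.5 ± 20.7 and 122.8 ± 11.6 CPM. It rose from day 7 to 13 by 0.86 ± 0.17 (adjusted p = 0.000944) and 0.97 ± 0.18 (adjusted p = 0.000398). Day 16 lay above day 13 with no overlap in both horns, yet the step did not pass (0.62 ± 0.17, adjusted p = 0.130, and 0.51 ± 0.18, adjusted p = 0.195). KLF6 rose from day 7 to 13 by 0.88 ± 0.18 (adjusted p = 0.00135) and 1.05 ± 0.11 (adjusted p = 8.14e-07), from 42.6 to 57.4 CPM to 78.2 to 109.2 CPM in the ipsilateral horn. Its fall before that (-0.62 ± 0.18, adjusted p = 0.0171, and -0.33 ± 0.11, adjusted p = 0.0412) was lost without 3-175 (-0.53, adjusted p = 0.057), without 8-1350 (-0.41, adjusted p = 0.0591) and, in the other horn, without 1-315 (-0.26, adjusted p = 0.129).

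MYC, a factor that drives growth and division, fell after day 5 in both horns. Contralateral MYC measured 34.7, 35.98, 36.8, 37.1 and 60.7 CPM on day 5 and 12.1, 12.1, 12.3, 13.2 and 16.2 CPM on day 7. Ipsilateral MYC measured 23.5, 25.1, 30.5, 47.8 and 92.5 CPM on day 5 and 10.1, 10.3, 11.8, 13.0 and 13.1 CPM on day 7. No library of day 7 reached the lowest of day 5 in either horn. The log2 change of MYC was -1.63 ± 0.19 (contralateral, adjusted p = 2.92e-05) and -1.90 ± 0.29 (ipsilateral, adjusted p = 0.000135), and both calls held without each library. The later rise to day 13 passed in the contralateral horn (0.63 ± 0.19, adjusted p = 0.0142) and not in the ipsilateral horn (0.47 ± 0.28, adjusted p = 0.22). On day 16 the means were 23.3 ± 2.3 CPM (ipsilateral) and 26.95 ± 5.28 CPM (contralateral, SD, n = 5), below those of day 5 at 43.9 ± 28.9 and 41.1 ± 11.01 CPM.

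The NR4A genes encode nuclear receptors that act without a known ligand. NR4A2 rose from day 7 to 13 in both horns, by 0.45 ± 0.13 (ipsilateral, adjusted p = 0.0123) and 0.46 ± 0.13 (contralateral, adjusted p = 0.0107). NR4A1 rose in the contralateral horn by 1.16 ± 0.32 (adjusted p = 0.00787), from 10.2, 10.8, 10.9, 12.5 and 18.3 CPM to 18.6, 25.2, 28.1, 32.2 and 37.1 CPM. Its ipsilateral change was 0.86 ± 0.33 (adjusted p = 0.059). NR4A3, the scarcest of the 3 by read count, rose in the contralateral horn by 1.26 ± 0.42 (adjusted p = 0.0274) and had an ipsilateral change of 1.14 ± 0.49 (adjusted p = 0.0915).

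IER3, a short-lived protein linked to cell survival, was level between days 5 and 7 and higher afterwards. Contralateral IER3 measured 15.2, 15.3, 16.6, 16.9 and 17.04 CPM on day 7 and 33.5, 43.2, 43.8, 50.9 and 54.4 CPM on day 13. It rose by 1.47 ± 0.20 (adjusted p = 1.35e-05) there and by 1.66 ± 0.29 (adjusted p = 0.000294) in the ipsilateral horn, which is 2.77-fold and 3.16-fold. IER5 fell from day 5 to 7 in the ipsilateral horn (-0.80 ± 0.18, adjusted p = 0.00306, contralateral -0.50 ± 0.18, adjusted p = 0.0523) and rose to day 13 in both (0.90 ± 0.18 and 1.07 ± 0.18). IER2 ranged only from 28.3 to 61.5 CPM over all 40 libraries and no day step was called with all libraries in, while without 3-175 it rose from day 5 to 7 in the ipsilateral horn (0.29, adjusted p = 0.0171).

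The inhibitors followed different courses. DUSP5, a nuclear phosphatase that inactivates ERK, fell from day 5 to 7 and did not return. Contralateral DUSP5 measured 16.0, 19.98, 26.3, 31.4 and 31.9 CPM on day 5 and 6.51, 7.40, 8.38, 11.6 and 13.8 CPM on day 7. The log2 change was -1.39 ± 0.25 (adjusted p = 0.000754) in that horn and -1.40 ± 0.26 (adjusted p = 0.000732) in the ipsilateral horn, and on day 16 the ranges were 5.51 to 8.69 and 4.56 to 7.71 CPM. DUSP1, which inactivates p38, JNK and ERK, rose from day 7 to 13 by 0.71 ± 0.19 (ipsilateral, adjusted p = 0.00789) and 0.72 ± 0.20 (contralateral, adjusted p = 0.00773). TRIB1, a pseudokinase that leads C/EBP proteins to degradation, fell in that step, with log2 changes of -0.83 ± 0.17 (ipsilateral, adjusted p = 0.00107) and -0.87 ± 0.12 (contralateral, adjusted p = 1.14e-05). Ipsilateral TRIB1 went from 32.1, 38.8, 40.7, 46.1 and 47.1 CPM to 19.6, 22.6, 23.8, 24.9 and 25.4 CPM, and the days did not overlap in either horn. ZFP36, which promotes decay of unstable mRNAs, SOCS3, which blocks cytokine receptors, and DUSP2 were not called in any step with all libraries in. Without 3-175 ZFP36 rose from day 5 to 7 in the ipsilateral horn (0.43, adjusted p = 0.0105).

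The GADD45 genes, small stress-induced proteins that arrest growth and activate MAP kinase kinases, moved in opposite directions. GADD45G fell from 17.6, 20.6, 20.8, 21.3 and 24.3 CPM on day 7 to 3.596, 4.21, 6.09, 6.58 and 8.84 CPM on day 13 in the ipsilateral horn. In the contralateral horn it fell from 17.4, 21.3, 22.3, 25.6 and 31.4 CPM to 2.69, 4.68, 6.55, 6.96 and 10.2 CPM. These were log2 changes of -1.85 ± 0.27 (adjusted p = 6.1e-05) and -1.93 ± 0.30 (adjusted p = 6.07e-05), without overlap. GADD45A took the other course, with contralateral values of 54.7 to 67.5 CPM on day 5, 38.96 to 47.3 CPM on day 7, 77.0 to 114.6 CPM on day 13 and 100.9 to 160.4 CPM on day 16. It fell (-0.54 ± 0.12, adjusted p = 0.00326) and then rose (1.21 ± 0.12, adjusted p = 3.4e-07) in that horn, and the rise to day 16 was 0.51 ± 0.12 (adjusted p = 0.0308).

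Ipsilateral GADD45A on day 5 measured 50.0, 53.2, 54.9, 67.1 and 283.7 CPM, and the highest was library 8-1350, the one with the high smooth muscle markers. The fall to day 7 was -1.37 ± 0.39 (adjusted p = 0.0129) with this library and -0.52 (adjusted p = 0.0373) without it, close to the contralateral value. The part of smooth muscle in the level of this library was not tested. GADD45B rose from day 5 to 7 by 0.68 ± 0.13 (ipsilateral, adjusted p = 0.00126) and 0.51 ± 0.12 (contralateral, adjusted p = 0.00741), and fell to day 13 with log2 changes of -0.38 ± 0.13 (adjusted p = 0.0392) and -0.49 ± 0.12 (adjusted p = 0.00512).

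BTG2, an antiproliferative gene induced by p53, had its highest mean on day 7 in both horns, as did GADD45B, GADD45G and SOCS3. It measured 66.1, 79.6, 81.1, 83.3 and 100.7 CPM on day 5 and 124.3, 126.9, 130.2, 147.4 and 170.3 CPM on day 7 in the ipsilateral horn, without overlap. It rose by 0.77 ± 0.15 (adjusted p = 0.000921) there and by 0.70 ± 0.18 (adjusted p = 0.00827) in the contralateral horn. PPP1R15A, which directs a phosphatase to eIF2-alpha and so restarts translation after stress, rose from day 7 to 13 by 0.99 ± 0.22 (ipsilateral, adjusted p = 0.00227) and 0.97 ± 0.12 (contralateral, adjusted p = 3.05e-06). MCL1, an anti-apoptotic BCL2 relative with a short-lived protein, ranged from 232.1 to 348.8 CPM over all 40 libraries and was not called in any step.

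Genes around this group, from lists of related function, moved in both directions in the same steps. Of 42 other rapid-response genes tested in the ipsilateral horn, 10 fell and 4 rose from day 5 to 7, and 8 rose and 5 fell from day 7 to 13. The prostaglandin synthase gene PTGS2 rose by 3.87 ± 0.42 (adjusted p = 3.02e-06) in the latter step, and ARC, known from neurons, had a change of -4.74 ± 0.58 (adjusted p = 9.32e-06). THBS1, another matrix-associated gene, had a change of -2.12 ± 0.44 (adjusted p = 0.00175) from day 5 to 7. Of 41 tested in the contralateral horn, 11 fell and 2 rose in the earlier step, and 8 rose and 5 fell in the later one, with PTGS2 at 4.18 ± 0.38 (adjusted p = 1.52e-07) and ARC at -4.77 ± 0.48 (adjusted p = 4e-07).

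Of 19 further feedback inhibitors, 5 fell and 2 rose from day 5 to 7 in the ipsilateral horn, and 6 rose and 0 fell from day 7 to 13, among them SPRY2 (1.03 ± 0.16, adjusted p = 8.47e-05), which restrains receptor tyrosine kinase signalling. Of 16 stress targets, 2 fell and 3 rose in the earlier step and 3 fell and 3 rose in the later one. MDM2, the ubiquitin ligase of p53, rose by 0.85 ± 0.09 (adjusted p = 3.73e-06), whereas DDIT4, an inhibitor of mTORC1, had a change of -1.11 ± 0.17 (adjusted p = 7.55e-05). CREM, a CREB-family gene, rose by 1.82 ± 0.20 (adjusted p = 2.94e-06) in the ipsilateral and 1.62 ± 0.15 (adjusted p = 2.29e-07) in the contralateral horn. Of the leukocyte markers, 0 of 10 passed in any of the 3 steps in either horn.

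A second property of the group appears between libraries of the same day and horn. For each horn the deviation of each library's log2 CPM from its group mean was taken over 20 libraries, and the other 35 genes were compared with FOS, 70 relations in all. Permutation tests within day (100000 permutations, adjusted over the 70 relations) passed for 10 genes in the ipsilateral horn and 15 in the contralateral horn. By the same test, at a permutation p of 0.0138 or lower (the largest that passed here) and a positive r, 1.03% and 2.44% of 20355 genes passed, against 28.6% and 42.9% of the 35. When the p was adjusted over all these genes and both horns, 0 of the 35 and 0 of all genes passed, with 12 and 16 of the 35 at an unadjusted p below 0.05 and a positive r, where 3.30% and 6.25% of all genes were. The passes named below are therefore those over the 70 relations alone. The same 10 passed in both: EGR1, EGR2, EGR3, NR4A1, CYR61, FOSB, JUNB, IER2, DUSP1 and ZFP36. As for the day effects, the horns carry the same heifer tags and are not counted as independent repeats. IER5, KLF4, MYC, PPP1R15A and SOCS3 passed in the contralateral horn alone, and 0 passed with a negative r. The deviations of a library share its scaling and depth. Over all genes with a mean log2 CPM of at least 1 the median r was 0.00 (ipsilateral) and 0.01 (contralateral), against 0.41 and 0.53 over the 35 genes.

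EGR1 followed FOS most closely, with Pearson r = 0.936 and Spearman rho = 0.824 (permutation p = 0.00017 and 0.00068, p of r adjusted over all genes 0.213) in the ipsilateral horn. In the contralateral horn r was 0.955 and rho 0.863 (permutation p = 1e-05, the smallest the permutations can give, and 0.00012, p of r adjusted over all genes 0.136). On day 7, however, the library highest in FOS was the lowest in EGR1 in each horn. The deviations of FOS and EGR1 were 0.355 and -0.335 in ipsilateral 4-064, and 0.277 and -0.271 in contralateral 5-117. Without the 2 libraries farthest from the median FOS deviation r of EGR1 was 0.812 and 0.894. NR4A1 had r = 0.840 and 0.857 and rho = 0.782 and 0.696 (permutation p of r 0.00204 and 0.00065, adjusted over all genes 0.331 and 0.262), and r = 0.687 and 0.695 without those libraries. CYR61 had r = 0.823 and 0.827 and rho = 0.717 and 0.702 (permutation p of r 0.00081 and 0.0002, adjusted over all genes 0.284 and 0.213), and r = 0.669 and 0.743 without them. Its day partner CTGF did not pass (r = 0.402 and 0.543, permutation p = 0.203 and 0.0802), nor did JUN, whose r was 0.205 and -0.145 (permutation p = 0.383 and 0.573).

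A called day step and a relation to FOS did not always go together. CTGF, FOSL1, FOSL2, IER3, KLF6, DUSP5, TRIB1, GADD45A and GADD45G had called day steps and no relation to FOS past the threshold, while FOSB, JUNB, IER2 and ZFP36 passed the relation and had no called day step. EGR1, EGR2, EGR3, NR4A1, CYR61 and DUSP1 had both in at least 1 horn, and MYC, IER5 and PPP1R15A had both in the contralateral horn. KLF4 and SOCS3 passed the relation in the contralateral horn alone and had no called day step. BTG2 had the most negative r (-0.39 and -0.36, permutation p = 0.113 and 0.187). Without library 3-175, 6 genes passed in the ipsilateral horn (EGR1, EGR2, EGR3, NR4A1, ZFP36 and CYR61), and in the contralateral horn 9 passed without day 7 library 6-338. Without 1-315 the contralateral relations of EGR2 (r = 0.54), MYC, DUSP1, IER5, PPP1R15A and SOCS3 did not pass. EGR1, EGR3, NR4A1 and CYR61 passed in both horns whichever single library was left out.

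**Figure D3:**
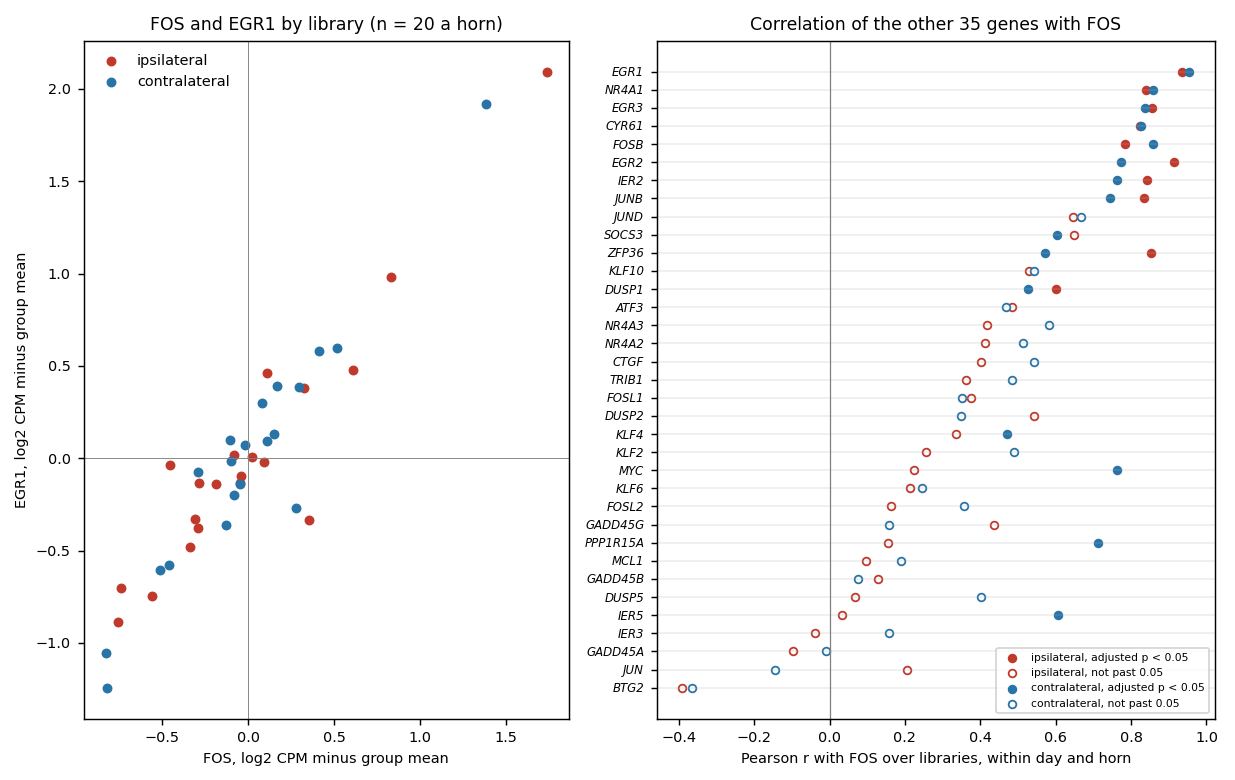
Left: deviation of EGR1 against that of FOS (log2 CPM minus the mean of the library's day and horn), 1 point per library; right: Pearson r with FOS of the other 35 genes over 20 libraries in each horn. EGR1 rises with FOS over the libraries of all days together, though on day 7 the library highest in FOS was lowest in EGR1 in each horn. When p is adjusted over the 70 relations, 10 genes pass in both horns.

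Over 14857 other genes with a mean log2 CPM of at least 1, the 10 most like FOS by the lower of the 2 horns' r were EGR1, NR4A1, EGR3, CYR61, IER2, JUNB, PIM1, SAMD4A, LMF2 and CD3E. PIM1, a serine/threonine kinase, had r = 0.730 and 0.825, and CD3E, a part of the T-cell receptor complex, had r = 0.846 and 0.709, over 20 libraries a horn. Over the 10 leukocyte markers r ran from 0.182 (CD163) to 0.846 (CD3E) in the ipsilateral and from 0.225 to 0.709, for the same genes, in the contralateral horn. The T-cell markers CD3D and CD2 were at 0.800 and 0.814 (ipsilateral) and 0.605 and 0.575 (contralateral), and the pan-leukocyte marker PTPRC was at 0.703 and 0.651. The myeloid markers CD68, CD14 and CSF1R were at 0.454, 0.452 and 0.338 (ipsilateral) and 0.380, 0.285 and 0.419 (contralateral). These are descriptions without a test. In library 3-175 CD3E was at 15.4 CPM against 4.15 to 5.83 CPM in the other ipsilateral day 5 libraries. The summed leukocyte level had r = 0.544 and 0.477 with FOS, the neutrophil and blood sum 0.706 and 0.701, log2 depth 0.593 and 0.026, epithelium -0.066 and -0.180, and smooth muscle 0.020 and 0.250, and their part in the relation was not tested.

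The spread between animals of a group was described by the pooled SD of log2 CPM within the 8 groups. For genes with a mean log2 CPM of at least 1, its median was 0.32 over 31 of these genes and 0.23 over all 14858 genes. EGR1 had an SD of 0.73 and CYR61 of 0.72, at the wide end, and MCL1 one of 0.16, smaller than most genes of the table. EGR2 had an SD of 0.90, but its mean log2 CPM of -0.855 lies outside that set. With genes of all levels in, 9 of the 36 had an SD above the upper quartile, as had 5089 of all 20356 genes. FOS, EGR1 and CYR61 varied most within day 5, where the highest library was several times the rest, so an absent day call for FOS comes with a wide interval: the ipsilateral change from day 5 to 7 had a 95% interval of -1.30 to 0.26 on the log2 scale.

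The last question was whether the 2 horns differed. On no single day was a gene of the group called, with 0 higher and 0 lower on each. The shares of all genes called higher and lower in the ipsilateral horn were 12.3% and 10.4% on day 5, 7.52% and 4.20% on day 7, 4.52% and 1.20% on day 13, and 3.87% and 0.663% on day 16. Averaged over the 4 days, 4 genes (11.1%) were lower in the ipsilateral horn, beside 18.6% of all genes, and 0 were higher, beside 19.6%. In sign, 27 of the 36 differences were negative, with a median of -0.09 against -0.01 over all genes.

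TRIB1 had the clearest of these differences, with -0.27 ± 0.07 (adjusted p = 0.00348). On day 13 it measured 19.6, 22.6, 23.8, 24.9 and 25.4 CPM in the ipsilateral and 25.8, 26.6, 27.8, 28.5 and 32.3 CPM in the contralateral horn. On day 16 it measured 24.6, 24.8, 27.5, 30.9 and 31.1 CPM against 31.5, 32.3, 33.9, 36.1 and 36.2 CPM. The horns did not overlap on these 2 days and did on days 5 and 7. The differences on days 5, 7, 13 and 16 were -0.27, -0.29, -0.26 and -0.27, each with an SE of 0.15, and none passed alone. The others were ZFP36 (-0.21 ± 0.06, adjusted p = 0.00859), JUND (-0.23 ± 0.09, adjusted p = 0.0359) and IER2 (-0.20 ± 0.08, adjusted p = 0.0326). The other 32 genes had differences of -0.40 to 0.15, and their 95% intervals lay between -0.80 and 0.59.

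These horn differences were small and moved with other values. Epithelial markers were lower in the ipsilateral horn, 10 of 14 on average over the days with a median of -0.34. The summed epithelial level was 928.8 to 1380 CPM against 1453 to 1921 CPM on day 5, and no epithelial marker was at 0. Leukocyte markers were lower for 3 of 10. The part of these cells in the horn differences was not tested. A further fit included the log2 share of reads in microRNA and tRNA genes, a measure of library composition. In it 0 genes of the group were called on average over the days. The adjusted p was 0.26 for IER2, 0.473 for ZFP36 and 0.201 for TRIB1. Over all genes the averaged count fell too, from 7768 to 2059. On day 5 alone the same fit called 4 genes of the group higher in the ipsilateral horn and 0 lower. The microRNA and tRNA share was itself higher in the ipsilateral horn, without overlap on days 5, 7 and 13. On day 5 it was 0.00989 to 0.01221% against 0.0082 to 0.00941% of the reads. The lost and the gained calls therefore cannot tell composition from horn. ZFP36 and TRIB1 were called whichever single library was left out. JUND and IER2 lost their call without contralateral library 1-315 (adjusted p = 0.0779 and 0.063) and without ipsilateral library 8-1350 (adjusted p = 0.0539 and 0.0521), and in all without any of 9 and 5 of the 40 libraries. Without library 3-175 the averaged count was 8 lower, and on day 5 alone JUNB, JUND, IER2, ZFP36 and TRIB1 were lower and GADD45A higher. With 1 library left out the averaged count over all genes was 7466 to 8016, against 7768 with all in. On day 5 it was 3368 to 4703, against 4628.

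**Figure D4:**
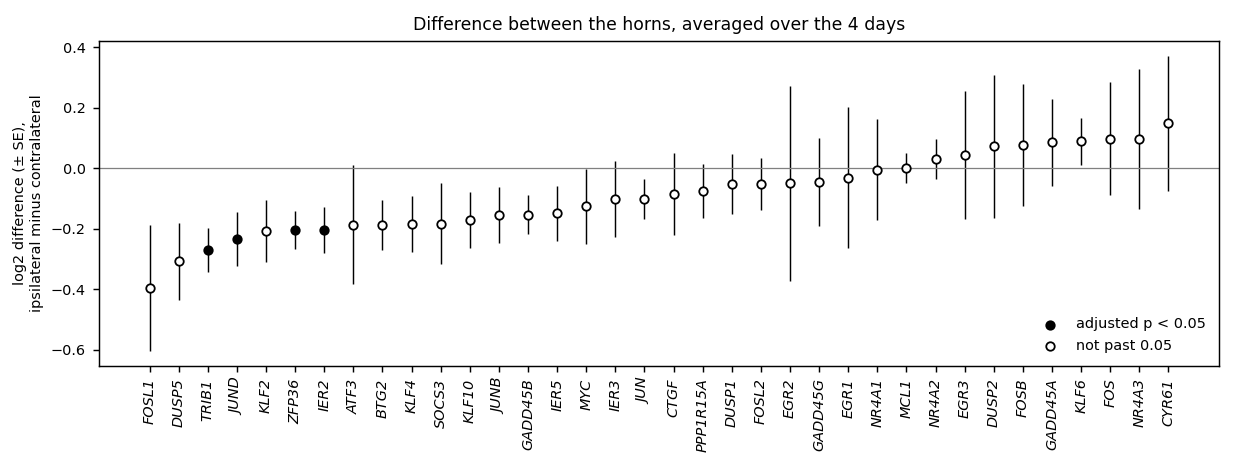
Difference between the horns averaged over the 4 days (log2, ipsilateral minus contralateral) for each of the 36 genes, with bars of 1 standard error and filled points at an adjusted p below 0.05. The 4 filled points, TRIB1, JUND, ZFP36 and IER2, lie between -0.27 and -0.20, and 27 of the 36 points are below 0.

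Whether the horns differed in their course over the days was tested directly. The horn difference changed with day for 0 of the 36 genes and for 0% of all genes (0 of 20356 by edgeR, by DESeq2 and by limma-voom, with 572 at an unadjusted p below 0.05 by edgeR). Genes that passed a day step in 1 horn alone, such as FOS, EGR1, ATF3 or NR4A1, were therefore not shown to differ between the horns.

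Related genes were compared in the same fit. Of 26 upstream kinases and factors 11 were higher and 10 lower in the ipsilateral horn, among them BRAF (0.65 ± 0.05, adjusted p = 5.39e-13). Of 43 other rapid-response genes 3 were higher and 6 lower, with PER1 at -0.24 ± 0.05 (adjusted p = 9.5e-05) and NFKBIA at -0.21 ± 0.06 (adjusted p = 0.00843). Of 19 feedback inhibitors 2 were higher and 4 lower, and of 16 stress targets 1 was higher and 5 lower. The difference between these lists was not tested.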

How the data were processed

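The deposited table holds raw read counts per gene for 40 endometrial libraries; the authors made stranded poly(A) libraries from Trizol-extracted RNA, per the labels' protocols, and used HISAT2, featureCounts, FastQC and build UMD3.1, per the submitters' processing notes. Versions, annotation and strand settings are not given in the sources used here, so genes that overlap another can share its reads. A mitochondrial row (mean share 0.119 to 0.490% of a group's reads) was left out, and 3987 of 32671 genes had no read. Groups come from the sample titles. The samples of a group are separate heifers by label.

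Counts were tested with edgeR 4.0.16 (TMM, filterByExpr, quasi-likelihood F tests, Benjamini-Hochberg adjusted p below 0.05 over all tested genes) in R 4.3.3. Day steps were fitted within each horn (20 libraries) and horn differences over 40 libraries in 8 groups. Relations to FOS were tested for all 20355 other genes of that fit too, by the same permutations. Log2 CPM used a prior count of 2; correlations used scipy 1.17.1. Alternatives were DESeq2 1.42.0, limma-voom (limma 3.58.1), RLE scaling, no filter, other sets of libraries, a replicate block, a composition covariate, a prior count of 0.5 and leaving out each library. The genes and lists (45 of 47 names of the other rapid-response list were in the table) were chosen with earlier results of these data known. All 36 genes are named. Of each other list up to 4 genes per comparison with the smallest adjusted p are eligible, and the 10 genes most like FOS. No sequence or coordinate was used, since no genome of the build was at hand. The 95% intervals are 1.96 standard errors either side.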

Additional observations from a re-analysis of the deposited data

Results flagged for a closer look

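In each group of 5 libraries the lowest and the highest value of each of the 36 genes was compared, on the log2 CPM scale, with Dixon's limit for its distance from the rest. Of 288 groups 31 exceeded it, and chance alone gives about 1 in 20, or 14.4. Values below are CPM.

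Library 3-175 of ipsilateral day 5 was high for FOS (89.86, others 15.9 to 25.44), JUNB (32.35, others up to 17.2), IER2 (61.5, others up to 32.38), NR4A1 (52.21, others up to 16.24) and DUSP1 (175.6, others up to 112.3). Library 1-315 of contralateral day 5 was high for JUND (148.5, others up to 85.35), ATF3 (8.45, others up to 3.764), KLF10 (78.45, others up to 46.54) and MYC (60.68, others up to 37.07). Library 8-1350 was high for GADD45A on ipsilateral day 5 (283.7, others up to 67.06).

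On day 7, ipsilateral library 5-117 was low for JUNB (20.21, others from 23.74), EGR2 (0.1657, others from 0.3021), DUSP1 (69.7, others from 127.9) and PPP1R15A (20.63, others from 22.91), and 2-371 was low for NR4A3 (0.327, others from 0.7853). Contralateral library 6-338 was low for DUSP1 (67.54, others from 127.8) and PPP1R15A (21.89, others from 26.58), and 2-1337 was high for JUN (173.1, others up to 140.6) and IER5 (34.16, others up to 23.43).

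On day 13, ipsilateral library 8-275 was high for FOS (73.67, others up to 40.16) and EGR1 (101.8, others up to 47.05). Library 5-167 of that group was low for GADD45B (15.26, others from 20.96), and contralateral library 4-1314 was high for MCL1 (321.6, others up to 271.9).

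On day 16, ipsilateral library 5-137 was low for KLF2 (20.11, others from 27.68), KLF10 (89.48, others from 111.2) and GADD45A (72.56, others from 127.8). On the first principal component of the 2000 most variable genes it lay at 7.08, against 50.2 to 56.8 for the other 4 libraries of its group. Ipsilateral library 7-107 was high for FOSB (4.826, others up to 1.569) and 3-155 for NR4A3 (2.134, others up to 1.518). Contralateral library 3-155 was low for DUSP1 (136.3, others from 210.4), GADD45B (17.64, others from 20.85) and CYR61 (19.02, others from 37.1).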

How the results depend on the processing

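No result changed direction past the threshold, and of the single-gene values under an alternative 3231 kept their call and 303 lost it. DESeq2 called 5 of the 36 genes lower from day 7 to 13 and 1 higher from day 13 to 16 in the ipsilateral horn, 1 higher and 2 lower between horns on day 5, and 7 lower on average. Of all genes it called 360 (ipsilateral, mainly 88) and 716 (contralateral, mainly 328) from day 13 to 16, and 1790 and 1455 between horns on days 13 and 16, against 1165 and 922. Fitting 40 libraries at once gave 208 genes (ipsilateral) and, of the 36, 0 higher (contralateral) from day 13 to 16. On day 5, RLE scaling called 1 of the 36 lower and so did no filter. Averaged over days, RLE scaling and no filter called 6 of the 36 lower. Fitting 1 day alone gave 2884 genes between horns on day 5 (mainly 4628) and 742 on day 13. The microRNA and tRNA covariate called 4 of the 36 higher on day 5 and 0 lower on average, and of all genes 2240, 231, 110 and 258 on days 5, 7, 13 and 16 (day 7 mainly 2386) and 2059 on average (mainly 7768). This covariate itself differed between the horns, so its fit cannot tell composition from horn. The cause of the differences between settings was not tested. The share of higher calls between horns was 64.2% on day 7 (RLE 56.6%, DESeq2 53.1%), 79.1% on day 13 (RLE 67.4%, DESeq2 60.8%) and 85.4% on day 16 (RLE 76.0%, DESeq2 67.0%).

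With the heifer tag as a replicate block the averaged horn test called 5 of the 36 lower and 7570 genes in all, with 4220, 2054, 890 and 674 genes on days 5, 7, 13 and 16. The labels give both horns of a tag to 1 heifer, and for most tags the data do not show this pairing. Same-tag deviations had r above 0.1 in 5 of 20 tags (-0.26 to 0.67, median -0.05), and the own tag was the best match in 5. On every day, however, the best matches joined each ipsilateral library to a different contralateral library, with r of 0.138 or more. The horns may thus be paired under other tags, which was not tested. The block follows the labels, so it does not test such a pairing.

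Leaving out 1 library at a time gave, of the 36 genes, 2 to 5 higher and 5 to 14 lower (ipsilateral day 5 to 7), 2 to 5 lower (ipsilateral day 7 to 13), 0 to 1 higher (both horns) and 0 to 1 lower (contralateral) from day 13 to 16, 0 to 3 higher and 0 to 5 lower between horns on day 5, and 2 to 8 lower on average. The relation to FOS passed for 6 to 13 (ipsilateral) and 9 to 15 (contralateral). Of all genes, 19 to 180 and 134 to 410 were called from day 13 to 16, and 1462 to 3024, 657 to 1299 and 550 to 1090 between horns on days 7, 13 and 16. With 5 libraries a group and wide spread, changes under the intervals given were not detectable.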
